A study of Homo sapiens with 2 samples.

Results

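The forkhead genes encode transcription factors that share a DNA-binding domain, the forkhead or winged-helix domain. They were taken as all gene symbols made of FOX, a subfamily letter from A to S and a number, without antisense transcripts and pseudogenes. On these arrays 41 such genes had a probe set that names 1 gene, of 22465 genes measured in that way. They comprised 4 FOXO genes and 37 genes of the other subfamilies. RefSeq lists 45 symbols of this form, and the remaining 4, FOXP4 among them, were not analysed here. The cells were IGROV1-R10, which derive from the human ovarian carcinoma line IGROV1 and resist cisplatin. One culture was transfected with a miR-491-5p duplex and the other with a control miRNA duplex, each at 20 nM and 24 hours after seeding, and total RNA of each was hybridised to 1 Affymetrix whole-transcript array. There was no untransfected array. The comparison asks how transcript levels differ when these cells receive miR-491-5p.

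FOXO proteins (FOXO1, FOXO3, FOXO4 and FOXO6) activate genes for cell cycle arrest, apoptosis, autophagy and defence against oxidative stress. When growth factors activate PI3K and AKT, AKT phosphorylates FOXO proteins, 14-3-3 proteins bind them, and they leave the nucleus, so much of their control acts on the protein and not on its RNA. Other subfamilies have other tasks: FOXM1 drives genes of mitosis, FOXA proteins open chromatin in epithelial and endodermal tissues, FOXK proteins repress autophagy genes that FOXO3 activates, FOXJ1 directs the building of motile cilia, and FOXL2 maintains granulosa cell identity in the ovary. A microRNA lowers messenger RNAs that pair with its seed, which is bases 2 to 8 from its 5′ end.

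The delivered miRNA is shown first, since the array comparison turns on it. The sequence is RefSeq's mature form on build GRCh38.p14, at chr9:20716120-20716141 on the plus strand, with the seed in capitals. The 7-base site that pairs fully with this seed in a messenger RNA is UCCCCAC. Transcript sequences were not used here, so no forkhead messenger RNA was searched for it.
hsa-miR-491-5p: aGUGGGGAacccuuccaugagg

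All values below are deposited signals on the log2 scale, and a difference is always miR-491-5p minus control. With 1 array per group there is no spread between cultures, so no difference has an error or a test, and "higher" or "lower" refers to this one pair of arrays. Because RNA was taken from whole cultures, a change in some cells and a smaller change in all of them cannot be told apart. A gene counted as above the filter when at least 1 of its values reached 5.55, the overall median of the table, which kept 14373 genes. Their median difference was -0.07, and the middle 95% lay between -0.68 and 0.37. The highest deposited values, 19.22 on the miR-491-5p array and 19.18 on the control array, lie above the range that log2 scanner intensities usually span, so the scale may have been stretched, and each fold given holds only if the deposited scale is plain log2. Signals of different probe sets depend on their probes, so levels are set side by side between arrays and not between genes.

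FOXO1 and FOXO3 stood at the upper edge of the forkhead family. FOXO1 read 8.79 on the miR-491-5p array and 8.36 on the control array, a difference of 0.43 (1.35-fold higher). FOXO3 read 9.15 on the miR-491-5p array and 8.79 on the control array, a difference of 0.36 (1.28-fold higher). FOXO1 and FOXO3 are the widely expressed members that link insulin and growth factor signalling to arrest and cell death genes. Of all genes above the filter, 98.3% had a smaller difference than FOXO1 and 97.2% a smaller one than FOXO3. Neither reached 1.5-fold.

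The other FOXO genes lay near the median of all genes. FOXO4, an X-linked member that shares targets with FOXO1 and FOXO3, read 6.53 on the miR-491-5p array and 6.50 on the control array (difference 0.03). FOXO6, a member best known from the brain, read 5.95 on the miR-491-5p array and 6.04 on the control array (difference -0.09). The FOXO6 signals lie near the filter, and whether they exceed background is unknown here. The difference of FOXO4 exceeded that of 70.4% of genes and that of FOXO6 exceeded that of 44.7%. The FOXO genes therefore did not all differ in one direction: 3 of 4 were above 0, and their median was 0.195. FOXO3B, a near-identical copy of FOXO3 that is outside the symbol rule, read 7.45 on the miR-491-5p array and 7.01 on the control array (difference 0.44). The probes may not separate FOXO3B from FOXO3, so its value is not a second measurement of a separate gene.

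**Figure D1:**
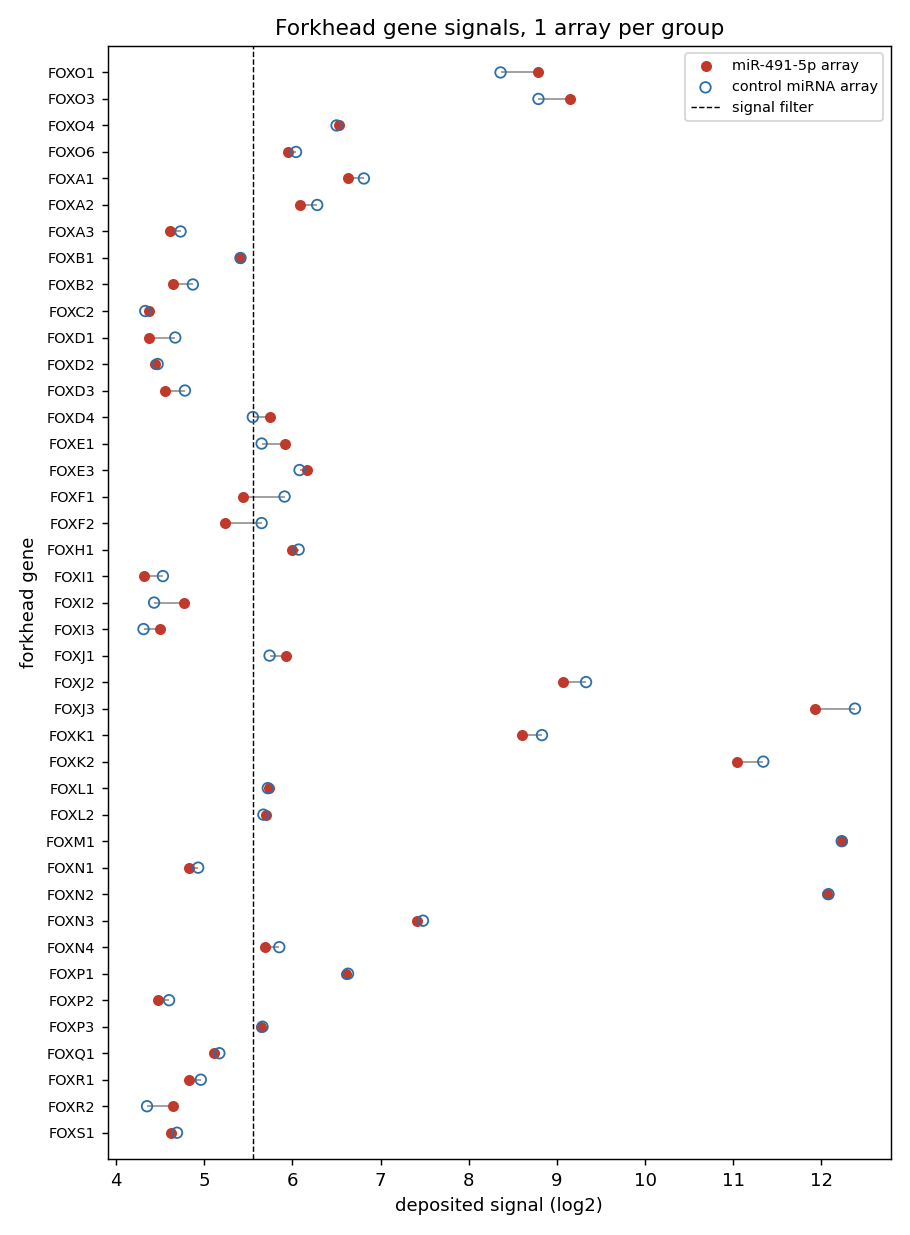
Deposited signal (x axis, log2) of each of the 41 forkhead genes (y axis) on the miR-491-5p array (filled points) and the control miRNA array (open points), with the signal filter of 5.55 as a dashed line. Each point is 1 array; FOXO1 and FOXO3 are the FOXO genes whose miR-491-5p value lies clearly to the right of the control value, and FOXJ3 and FOXK2 show the opposite order.

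All 4 FOXO genes were above the filter on both arrays. Of the 37 other forkhead genes, 21 were above it, 19 of them on both arrays. The median difference of those 21 was -0.07, the same as that of all genes above the filter, and the FOXO median exceeded it by 0.265. Among the 21, 14 were below 0, 6 above 0 and 1 at 0. FOXF1 and FOXF2 are among those below 0 and passed the filter on the control array alone, which fixed their direction. Without them, the 19 above the filter on both arrays had a median of -0.02, which the FOXO median exceeded by 0.215. Of these 19, 12 were below 0, 6 above 0 and 1 at 0. None of the 21 was as far above 0 as FOXO3: the highest was FOXE1, at 0.27. Over all 14373 genes, 64.8% were below 0 and 33.5% above 0, so the split among the other forkhead genes was near the background. With 4 FOXO genes, of which FOXO1 and FOXO3 carry the shift, the median describes these genes and is not a test of the subfamily.

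No forkhead gene was past 1.5-fold in either direction, where 3.62% of all genes above the filter were lower and 0.675% higher. Past 2-fold, where there were also 0 forkhead genes, the background was 0.758% lower and 0.0487% higher. A smaller threshold of 1.25-fold, chosen after these values were seen, took in 2 of 25 members on the higher side (8.0%), FOXO1 and FOXO3, against 3.37% of all genes. On the lower side it took in 3 of 25 (12.0%), against 12.6% of all genes. Those 3 were FOXJ3, FOXF1 and FOXF2, and the last pair passed the filter on the control array alone, which fixed their direction. Restricted to the 23 members above the filter on both arrays, the counts were 2 higher and 1 lower. Of all 13745 genes above the filter on both arrays, 462 were at least 1.25-fold higher and 1708 lower.

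**Figure D2:**
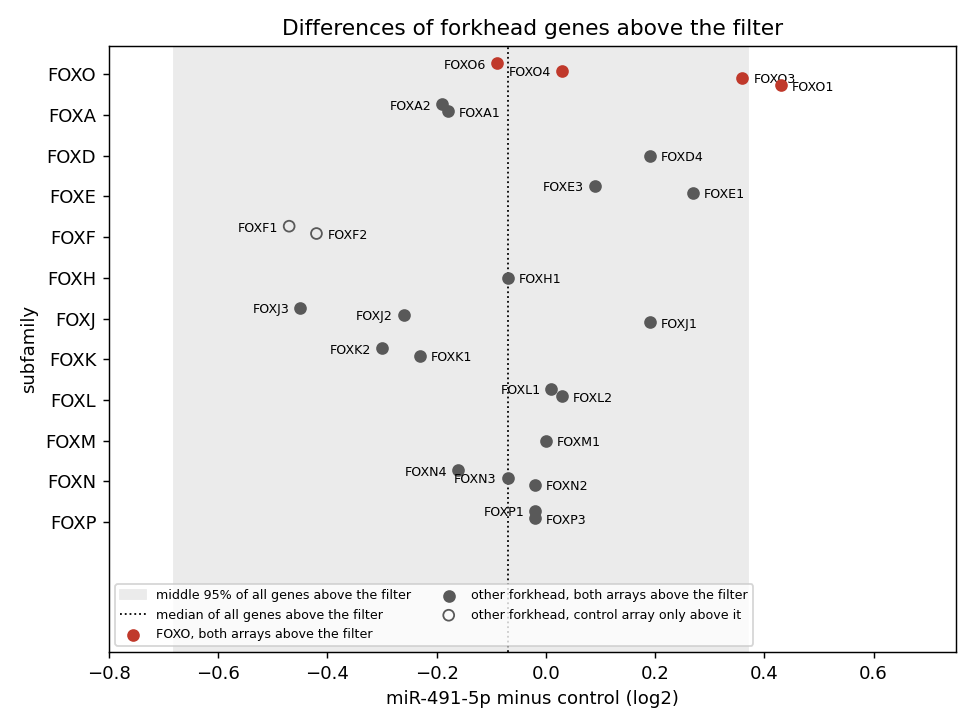
Difference between the arrays (x axis, miR-491-5p minus control, log2) of the 25 forkhead genes above the filter, by subfamily (y axis). The grey band is the middle 95% of all 14373 genes above the filter and the dotted line their median of -0.07; FOXO1 at 0.43 lies beyond the band's upper edge of 0.37, FOXO3 at 0.36 lies at that edge, and all other forkhead genes lie inside.

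The FOXJ and FOXK genes with strong signals were lower. FOXJ3, a broadly expressed member of the FOXJ subfamily, read 11.93 on the miR-491-5p array and 12.38 on the control array. Its difference of -0.45 (1.37-fold lower) was the lowest among forkhead genes above the filter on both arrays, and 6.83% of all genes had a smaller value. FOXJ2 read 9.07 on the miR-491-5p array and 9.33 on the control array, a difference of -0.26. FOXJ2 and FOXJ3 thus lay on the same side, below 0, as did 64.8% of all genes above the filter. Of those genes, 17.5% had a smaller difference than FOXJ2. FOXJ1, the ciliogenesis factor, read 5.93 on the miR-491-5p array and 5.74 on the control array (0.19). The FOXJ1 signals lie near the filter, and whether they exceed background is unknown here.

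Both FOXK genes had negative differences. FOXK2 read 11.04 on the miR-491-5p array and 11.34 on the control array (-0.30), and FOXK1 read 8.60 on the miR-491-5p array and 8.83 on the control array (-0.23). FOXK1 and FOXK2 are forkhead-associated domain proteins that bind many of the sites FOXO3 can bind. Of all genes, 14.1% had a difference below that of FOXK2 and 20.6% one below that of FOXK1, so values of this size were common on these arrays.

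FOXM1, the forkhead factor of dividing cells, had the same signal on both arrays, 12.23 on the miR-491-5p array and 12.23 on the control array. FOXN2 read 12.06 on the miR-491-5p array and 12.08 on the control array (-0.02). FOXN3, a repressor linked to cell cycle checkpoints, read 7.41 on the miR-491-5p array and 7.48 on the control array (-0.07). FOXM1, FOXN2 and FOXN3 were thus nearly level between the arrays. FOXN4, a factor of retinal development, read 5.69 on the miR-491-5p array and 5.85 on the control array (-0.16).

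**Figure D3:**
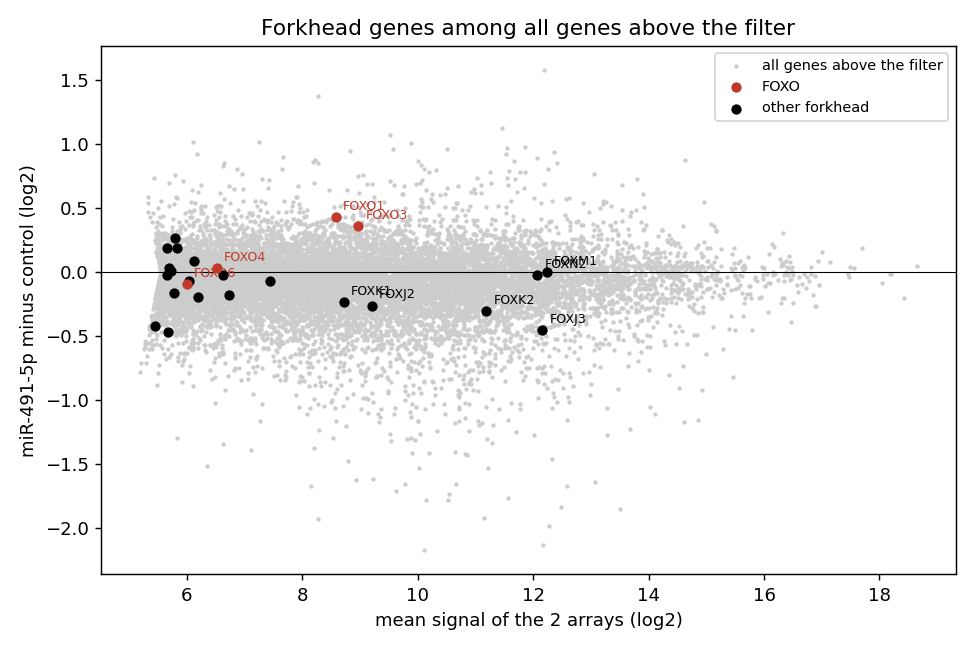
Difference between the arrays (y axis, miR-491-5p minus control, log2) against the mean signal of the 2 arrays (x axis, log2) for all 14373 genes above the filter (grey), the 4 FOXO genes (red) and the 21 other forkhead genes above the filter (black). FOXO1 and FOXO3 lie above 0 near the upper side of the cloud, while FOXJ3 and FOXK2 lie below 0 and FOXM1 on it.

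Above the filter, FOXP members lay close to the median of all genes and FOXA members somewhat below it. FOXA1, a pioneer factor of hormone-responsive epithelia, read 6.63 on the miR-491-5p array and 6.81 on the control array (-0.18). FOXA2, a factor of endoderm and uterine glands, read 6.09 on the miR-491-5p array and 6.28 on the control array (-0.19). Of all genes above the filter, 27.5% had a smaller difference than FOXA1 and 25.9% a smaller one than FOXA2. FOXA3 was below the filter, with 4.61 on the miR-491-5p array and 4.73 on the control array. FOXP1, a repressor of lymphoid and epithelial cells, read 6.61 on the miR-491-5p array and 6.63 on the control array (-0.02). FOXP3, which defines regulatory T cells, was just above the filter, with 5.64 on the miR-491-5p array and 5.66 on the control array, and FOXP2 was below it, with 4.47 on the miR-491-5p array and 4.60 on the control array. The FOXN2, FOXP1 and FOXP3 differences of -0.02 each became positive once the general shift was removed (0.05 after median centring).

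The remaining members above the filter had signals between 5.23 and 6.17 on the miR-491-5p array and between 5.55 and 6.08 on the control array. FOXE1, a thyroid developmental factor, read 5.92 on the miR-491-5p array and 5.65 on the control array (0.27), and FOXE3, a lens factor, 6.17 on the miR-491-5p array and 6.08 on the control array (0.09). FOXL2 read 5.70 on the miR-491-5p array and 5.67 on the control array (0.03), and FOXL1, a marker of stromal cells in the gut, 5.73 on the miR-491-5p array and 5.72 on the control array (0.01). FOXH1, a partner of SMAD proteins in nodal signalling, read 6.0 on the miR-491-5p array and 6.07 on the control array (-0.07, and 0.00 after median centring). Signals this near the filter are weak, and whether they exceed background is unknown here.

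FOXF1 and FOXF2, which are mesenchymal factors, read 5.44 and 5.23 on the miR-491-5p array and 5.91 and 5.65 on the control array. Their differences of -0.47 and -0.42 rest on a value below the filter on the miR-491-5p array. FOXD4 read 5.74 on the miR-491-5p array and 5.55 on the control array (0.19). The near-identical copies outside the rule lay on the other side of 0, FOXD4L1 at -0.33, FOXD4L6 at -0.30 and FOXD4L5 at -0.08, so the direction for FOXD4 is uncertain.

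The other 16 forkhead genes were below the filter on both arrays. FOXB1 came nearest to it, with 5.41 on the miR-491-5p array and 5.41 on the control array. Besides FOXA3, FOXB1 and FOXP2, they were FOXB2, FOXC2, FOXD1, FOXD2, FOXD3, FOXI1, FOXI2, FOXI3, FOXN1, FOXQ1, FOXR1, FOXR2 and FOXS1. These include developmental factors such as FOXD3 of the neural crest, FOXI1 of ion-transporting epithelia and FOXN1 of the thymus. FOXI2 (0.34) and FOXR2 (0.30) had positive differences of a size like that of FOXO3, but at signals of 4.77 and 4.65 on the miR-491-5p array and 4.43 and 4.35 on the control array, well under the filter.

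Genes that control FOXO proteins were taken from a list of 31, of which 26 were measured, all above the filter. Their median difference was -0.12, against -0.07 for all genes. Of the 26, 11 (42.3%) were above 0, against 33.5% of all genes, and 14 below, against 64.8%. Past 1.5-fold, 2 of 26 were higher (7.69%, against 0.675% of all genes) and 0 lower (against 3.62%). The list was drawn up with earlier results of these arrays known, so these counts are a description only. YWHAB, the 14-3-3 beta protein of the family that holds phosphorylated FOXO in the cytoplasm, read 12.83 on the miR-491-5p array and 11.89 on the control array (0.94). YWHAZ, another 14-3-3 gene of the list, named after its values were seen, read 13.13 on both arrays (0.0). SETD7, a lysine methyltransferase that modifies FOXO3, read 9.53 on the miR-491-5p array and 8.94 on the control array (0.59, 1.51-fold higher). KAT2B, an acetyltransferase of FOXO proteins, stood at 0.46. SGK1, an AKT-related kinase that phosphorylates FOXO3, was the lowest of the list, with 7.77 on the miR-491-5p array and 8.24 on the control array (-0.47). The kinases AKT1 and AKT2, named here after their values were seen, differed by -0.10 and -0.25. These are RNA levels and do not measure phosphorylation or the location of FOXO proteins.

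Genes listed as FOXO targets, most of them known to be activated by FOXO proteins, went both ways. TP53INP1 and SESN3 were among the 7 genes of the whole comparison past 2-fold on the higher side. Of 47 listed, 45 were measured and 40 were above the filter, IRS2 and IGFBP1 on the control array alone, which fixed their direction as lower. The median of the 40 was 0.02, against -0.07 for all genes, and 22 (55.0%) were above 0, against 33.5% of all genes. The median of the 38 above the filter on both arrays was 0.035. Past 1.25-fold, 8 of the 40 were higher (20.0%, against 3.37% of all genes) and 6 lower (15.0%, against 12.6% of all genes), IRS2 among the 6. Past 1.5-fold, 3 were higher and 3 lower, each 7.5% of the list, against 0.675% of all genes on the higher side and 3.62% on the lower.

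TP53INP1, which promotes cell death and autophagy, read 8.96 on the miR-491-5p array and 7.58 on the control array (1.38, 2.60-fold higher). SESN3, the sestrin that FOXO induces to restrain mTORC1, read 7.75 on the miR-491-5p array and 6.73 on the control array (1.02, 2.03-fold higher). KLHL24, a ubiquitin ligase adaptor, read 8.65 on the miR-491-5p array and 7.77 on the control array (0.88). On the other side, TRIB1, a pseudokinase, read 9.62 on the miR-491-5p array and 10.41 on the control array (-0.79).

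Further FOXO targets were named after their values were seen, as those past 1.25-fold. GABARAPL1, an autophagy protein, stood at 0.50, CDKN1B, the cell cycle inhibitor p27, at 0.49, ERBB3, a receptor that returns when AKT is blocked, at 0.45, BCL2L11, which encodes the pro-apoptotic protein BIM, at 0.41 and PINK1, a kinase of mitophagy, at 0.41. GADD45A, a growth arrest and DNA damage gene, and KLF6, a tumour suppressor, each stood at -0.72, IRS2 at -0.56, the muscle atrophy ligase FBXO32 at -0.45 and the cyclin CCND2 at -0.36. CCND2 and the listed cyclin CCND1 (0.17) are better known as genes that FOXO proteins repress. The counts of the list therefore do not measure activation alone. Thus genes of arrest were on both sides, CDKN1B higher and GADD45A lower, and CDKN1A, the inhibitor p21, read 7.81 on the miR-491-5p array and 7.89 on the control array. The FOXO target list was drawn up with earlier results of these arrays known, several of its members included, so its counts are a description only.

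**Figure D4:**
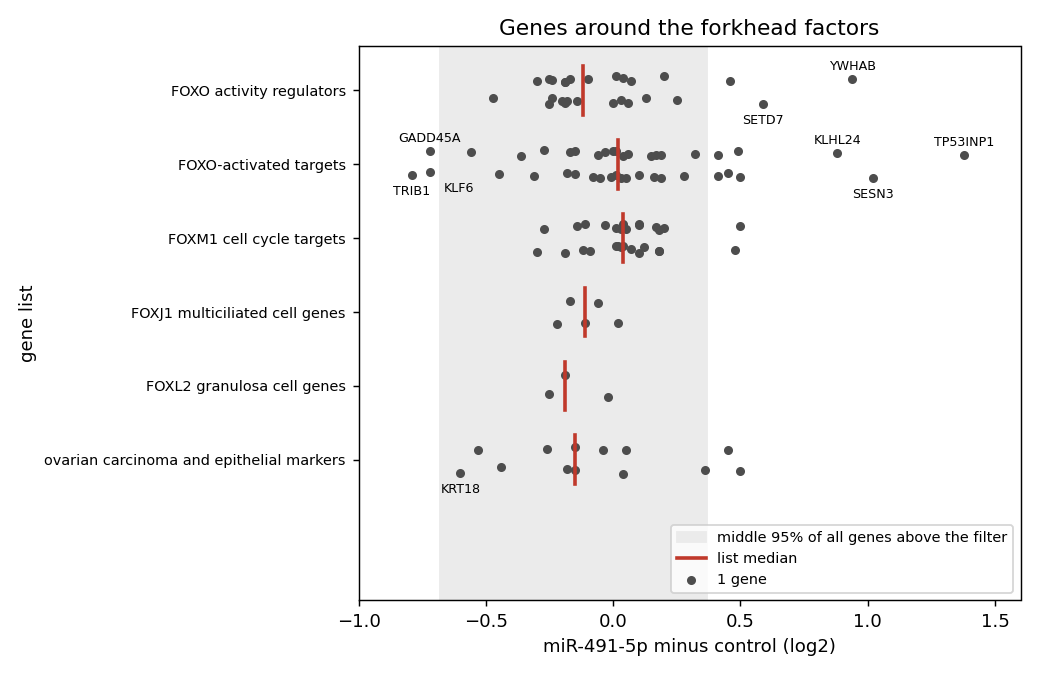
Difference between the arrays (x axis, miR-491-5p minus control, log2) of the genes above the filter in each of 6 lists (y axis); each point is a gene, vertical spread within a list carries no value, and red bars are list medians. The grey band is the middle 95% of all genes above the filter; TP53INP1, SESN3, YWHAB and KLHL24 lie farthest to the right, while the FOXM1 list is narrow around its median of 0.04.

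Genes of mitosis that FOXM1 activates lay close together, like FOXM1 itself. All 28 listed were above the filter, with a median of 0.04, and 20 (71.4%) were above 0, against 33.5% of all genes. As for the other lists, earlier results were known when it was drawn up, so these counts are a description only. None of the 28 was past 1.5-fold, where 3.62% of all genes were lower and 0.675% higher, so 0 is near the background. Their differences ran from -0.30 to 0.50. KIF20A, a kinesin of cytokinesis, stood at 0.50 and CDC25C, the phosphatase that starts mitosis, at 0.48. SKP2, which targets p27 and FOXO1 for degradation, stood at -0.30 and TPX2, a spindle assembly factor, at -0.27.

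Marker genes for cells in which other forkhead factors act were mostly under the filter. Of 17 genes of multiciliated cells, where FOXJ1 acts, 5 were above it, with a median of -0.11: DNAH5 (-0.22), TPPP3 (-0.17), TUBB4B (-0.11), RSPH1 (-0.06) and CAPS (0.02). The ciliary dyneins DNAI1 and DNAH9, named as defining markers outside the naming rule like CAPS, were below it, at 5.30 and 4.90 on the miR-491-5p array and 5.36 and 5.03 on the control array. Of 11 measured genes of granulosa cells, where FOXL2 acts, 3 were above it: HSD17B1 (-0.25), INHA (-0.19) and AMHR2 (-0.02). FSHR and CYP19A1, which define granulosa cells, were below it, at 4.73 and 4.70 on the miR-491-5p array and 4.89 and 4.83 on the control array.

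Of 14 ovarian carcinoma and epithelial markers, 13 were above the filter. MUC16, named after its values were seen, was near it, at 5.94 on the miR-491-5p array and 5.89 on the control array. Whether its signals exceed background is unknown here. PAX8, the lineage factor of many ovarian carcinomas, read 14.59 on the miR-491-5p array and 14.77 on the control array, and the mesothelin gene MSLN was the marker below the filter. The list's median was -0.15. Its members went both ways, with the keratins KRT18 at -0.60 and KRT19 at -0.53, against CDH1, which encodes E-cadherin, at 0.50 and the transcription factor MECOM at 0.45. Their part in the forkhead differences was not tested.

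Promoter sequence was examined for forkhead and FOXO target genes, because FOXO factors bind a short core motif. Whether such binding has a part in any difference was not tested. RefSeq windows of 300 bases, from 250 before to 50 after each gene's start on GRCh38.p14, were available for 31 of the forkhead genes and 36 of the FOXO targets. They were searched on both strands for the cores GTAAACA and ATAAACA, which differ in their first base. Of all 35116 windows, 7.43% held either core, and 8.98% of genes had at least 1 such window. Among forkhead genes it was 3 of 31 (9.68%), namely FOXO3, FOXO4 and FOXP1, which is near the share of all genes. Among the FOXO targets it was 8 of 36 (22.2%), BCL2L11 and TXNIP among them. The FOXO target list was made of genes known to be bound by FOXO, so a high share there was built into it.

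The stretch of 120 bases before the FOXO1 start is shown because FOXO1 had the largest positive difference of the family. It lies at chr13:40666642-40666761 on the minus strand, and the capitals mark 2 matches of GGGCGGG, the GC box bound by SP1 proteins, which 33.1% of all windows hold on either strand. FOXO1 has 1 window, and neither forkhead core was in it. Stretches of 29 bases around the forkhead core, in capitals, are shown for FOXO3 (chr6:108560672-108560700, plus strand, in 1 of its 4 windows), FOXP1 (chr3:71245253-71245281, minus strand, core on the opposite strand), BCL2L11 (chr2:111120680-111120708, plus strand) and TXNIP (chr1:145996686-145996714, minus strand).
FOXO1: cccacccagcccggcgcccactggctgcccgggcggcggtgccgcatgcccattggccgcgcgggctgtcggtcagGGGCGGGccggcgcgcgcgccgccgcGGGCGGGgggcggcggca
FOXO3: ccgagcgaaacATAAACAaacgcacgcac
FOXP1: aactatgttatTGTTTACtttaccataca
BCL2L11: gagttactccgGTAAACAcgccagggacg
TXNIP: tcgggctcctgGTAAACAaggaccgggca

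Genes with a forkhead core shown above did not share a difference. FOXO3 (0.36) and BCL2L11 (0.41) were higher on the miR-491-5p array, whereas FOXP1 differed by -0.02 and TXNIP, a redox regulator, by 0.03, with 11.19 on the miR-491-5p array and 11.16 on the control array. A match of these letters is a description of the window and does not show binding.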

How the data were processed

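Per the labels' protocols, 100 ng of total RNA per culture was converted to biotin-labelled cDNA and hybridised to 1 whole-transcript array per group. RMA signals on a log2 scale, 1 per transcript cluster (probe set), are what the authors deposited; the submitters' processing notes name RMA. Its version, any background correction and the log base were not found in the labels, so log2 was taken from RMA's convention, although the highest values exceed the usual log2 scanner range. The miR-491-5p values had a median of 5.51 (2.53 to 19.22) and the control values one of 5.59 (2.58 to 19.18). The number of arrays, 1 in each group, limits the precision.

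Of 67528 probe sets, 23781 name 1 gene in GEO's platform annotation, 1543 name several and 42204 are unnamed here. Each gene took its probe set with the highest mean, and every forkhead gene had 1. All 41 forkhead symbols matched RefSeq. Every forkhead gene above the filter was named, with up to 4 members of each list by size of difference above the filter. Defining cell type markers (CAPS, DNAI1, DNAH9, FSHR, CYP19A1, PAX8, MSLN) and the genes the text marks as named after their values were seen lie outside this rule. So do CCND1, CDKN1A and TXNIP. Members, lists and thresholds were chosen with earlier results of these data known. Alternatives were median centring, loess (span 0.3), other filters, mean probe sets and another fold threshold. Counting, centring and loess were tested on simulated differences larger than any forkhead difference here, so sizes like those of the forkhead genes were not tried. The tools were Python 3.11.15, pandas 2.3.3, numpy 2.4.6, statsmodels 0.14.6 and matplotlib 3.10.9.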

Additional observations from a re-analysis of the deposited data

How the results depend on the processing

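Neither group had a second array, so leaving out replicates could not be tried. No paired analysis was possible because there is a single array on either side. With the filter raised to the 75th percentile of all values (7.52), FOXO1 and FOXO3 were the FOXO genes left: the FOXO median was 0.395 and exceeded that of the other forkhead genes by 0.64. With that filter, or with both arrays required to pass 5.55, 1 forkhead gene instead of 3 was at least 1.25-fold lower. Under loess that count was 2. After median centring or loess, 3 forkhead genes instead of 2 were at least 1.25-fold higher, with FOXE1 added (0.34 centred, 0.35 after loess). Without a filter 3 were higher as well, with FOXI2 (0.34) added. The counts past 1.5-fold were 0 in both directions under every setting run. Median centring raised all differences by 0.07, and the loess correction raised those of the forkhead genes above the filter by 0.06 to 0.10. Of 75 recomputed differences of single forkhead genes, 7 changed sign, in FOXN2, FOXP1 and FOXP3 under both scalings and in FOXH1 under loess. No forkhead gene had a second probe set, so averaging probe sets changed none of them. None of 35 recomputed list medians moved by as much as 0.193, the robust SD of differences over all genes above the filter. The FOXL2 list had no gene above the 75th percentile filter and so no value there. Signal over background is unknown.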
